A study of Rattus norvegicus with 16 samples.

Results

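Clone 3-44 is a line of rat hepatoma H35 cells in which the gene *Pdrg1* was targeted by RNA interference, and its transcripts were compared here with those of the control clone CN-10. H35 cells come from a rat liver tumour and keep part of the hepatocyte's gene activity. The members are the 4 arrays of 3-44 and the 4 arrays of CN-10, that is 8 of the 16 arrays of the study, and every probe for a gene was measured on each. CN-10 carries a plasmid with a short hairpin RNA (shRNA) of a negative control sequence, and 3-44 carries plasmid shRNA number 3 directed at *Pdrg1*. Both plasmids give resistance to G418, and both clones were selected with 1.8 mg/ml G418 for 2 weeks and then with 4 mg/ml for 2 weeks more. Each is 1 clone picked, out of many screened by RT-qPCR of *Pdrg1*, for reproducible behaviour, so a difference between them may belong to the hairpin or to the clone, and these cannot be told apart within this pair. The other groups, 4 arrays each, served for direct tests: shRNA3T is a pool of cells transiently transfected with the same shRNA3 plasmid and enriched with 1.8 mg/ml G418 for 2 weeks, and 4-18 is a stable clone made with another hairpin, shRNA number 4. All cells were grown in the same medium with serum, and each array was labelled from 200 ng of total RNA of 1 biological replicate.

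PDRG1 (p53 and DNA damage regulated 1) is a small protein of the prefoldin family, found in a complex with URI1, RUVBL1, RUVBL2 and the RNA polymerase subunit RPB5, and the study of these cells concerns its binding to methionine adenosyltransferases, the enzymes that make S-adenosylmethionine. Hepatocytes make most plasma proteins, pack fat and cholesterol into lipoproteins, release glucose in fasting and burn fatty acids. Hepatoma cells keep these activities to varying degrees under a set of liver transcription factors that includes HNF1, HNF4, C/EBP and LRH-1 (*Nr5a2*). Inflammatory and growth signals, by contrast, act through factors such as NF-kB and EGR1 and raise chemokines and immediate early genes.

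Between 65.8% and 74.3% of gene spots stood well above background, as marked by the scanner software, on the 8 arrays. Replicate 1 of 3-44 stood apart from the other 3 arrays of its clone. Among probes for which some group had its 4 arrays well above background, 884 lay 2-fold or more below the mean of the other 3 arrays on it, against 4 to 106 on those arrays and 49 to 141 in CN-10. The shift touched 4.99% of probes printed once and 0.0931% of those printed 10 times or more. Named genes that lose their call without this array are therefore given with their values. Because each group was hybridized on its own slide, an effect of the slide cannot be separated from one of the group, and the p-values measure the spread between replicates of 1 clone. The labelled cell type was checked against markers: 13 of 14 hepatocyte markers were well above background on all 8 arrays, and the mean log2 level of the list was 11.57 to 11.85 on CN-10 arrays and 12.02 to 12.71 on 3-44 arrays. Of 9 hepatoblast and hepatoma markers, 4 were well above background on all 8 arrays and *Igf2* on none, and their mean was 9.47 to 9.56 and 9.46 to 9.57. Of the markers of other cells, 5 of 12 stellate and fibroblast, 6 of 11 macrophage and leukocyte, 2 of 9 endothelial and 2 of 9 bile duct genes were well above background on all 8 arrays. Not well above background on a single array were 4 stellate and fibroblast (*Dcn* and *Lum* among them), 2 leukocyte (*Ptprc* and *Cd163*), 4 endothelial (*Pecam1* and *Tek* among them) and 4 bile duct genes. No bile duct, stellate or endothelial marker was called, and of the hepatocyte markers *Ttr* and *Apoa1* were called, both higher. In cultures measured in bulk, fewer cells of a kind and less RNA per cell cannot be told apart.

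*Pdrg1* is reported first, because it checks the labels. Its probe lies on rn4 chromosome 3, chr3:143353382-143353441, on the minus strand, and its sequence is shown since every statement on silencing rests on it:
Pdrg1 probe: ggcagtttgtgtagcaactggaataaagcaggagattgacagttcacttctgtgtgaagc
The log2 levels were 13.41, 13.88, 13.51 and 13.77 in CN-10 and 11.89, 12.86, 12.90 and 12.95 in 3-44. All 3-44 arrays lay below all CN-10 arrays, and replicate 1 of 3-44 lay far below the other 3. The mean fell from 13.64 ± 0.22 to 12.65 ± 0.51 (SD, n = 4), a log2 difference of -0.99 ± 0.34 SE or 49.7% less signal. In limma the adjusted p was 0.105, and *Pdrg1* passed neither limit for a call, while a two-sided exact permutation test of the 4 against 4 arrays gave p = 0.0286, the smallest this design allows. Without replicate 1 of 3-44 the difference was -0.74 (adjusted p = 0.253). Replicate 1 was the lowest array in each of the 4 groups, and without replicate 1 of all groups the difference was -0.81 (adjusted p = 0.000306). With the replicate number as a block the adjusted p was 0.0108, and with the 8 arrays alone 0.0378, with the difference under 2-fold in each. The level did not differ detectably from shRNA3T (-0.14, adjusted p = 0.874) or 4-18 (-0.22, adjusted p = 0.702). *Mat1a*, which encodes the liver methionine adenosyltransferase subunit, read 10.62, 10.73, 11.08 and 10.34 in CN-10 and 10.58, 11.87, 12.09 and 12.13 in 3-44, again with a low first array (difference 0.97, adjusted p = 0.0817). Without that array the *Mat1a* difference was 1.34 (adjusted p = 0.0029) and was called. *Mat2a*, the subunit of non-hepatic tissues and growing cells, differed by -0.12 (adjusted p = 0.71). Of the 14 genes listed as prefoldins or PDRG1 partners, only *Polr2e*, which encodes RPB5, had a called probe, the dimmest of its 3 (1.17, adjusted p = 0.0256). Its brightest probe gave -0.20 (adjusted p = 0.408). Of the 24 methionine cycle and methylation genes, *Dnmt3b*, a de novo DNA methyltransferase, was called lower (-1.32, adjusted p = 0.00149) on the brighter of 2 probes. The dimmer *Dnmt3b* probe, with no 3-44 array well above background, gave -0.09 (adjusted p = 0.678). *Polr2e* lost its call without CN-10 replicate 1, 2 or 3, or without 3-44 replicate 1, 2 or 4 (log2 difference 1.08 to 1.20 there, adjusted p 0.0507 to 0.0756).

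A gene was called when 1 of its probes differed at least 2-fold with a Benjamini-Hochberg adjusted p under 0.05 in limma. Of 26269 gene names, 196 were called higher in 3-44 (0.746% of those tested) and 217 lower (0.826%), or 1.57% together. Without replicate 1 of 3-44 the counts were 185 and 197. The 2 directions differed in make-up, because 151 of the higher names but 76 of the lower ones were gene symbols. The arrays of the 2 clones did not overlap for 199 of 207 called higher probes (0.682% of probes) and for all 219 called lower ones (0.721%, or 1.4% in both directions), against 7.39% and 8.68% of all probes.

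**Figure D1:**
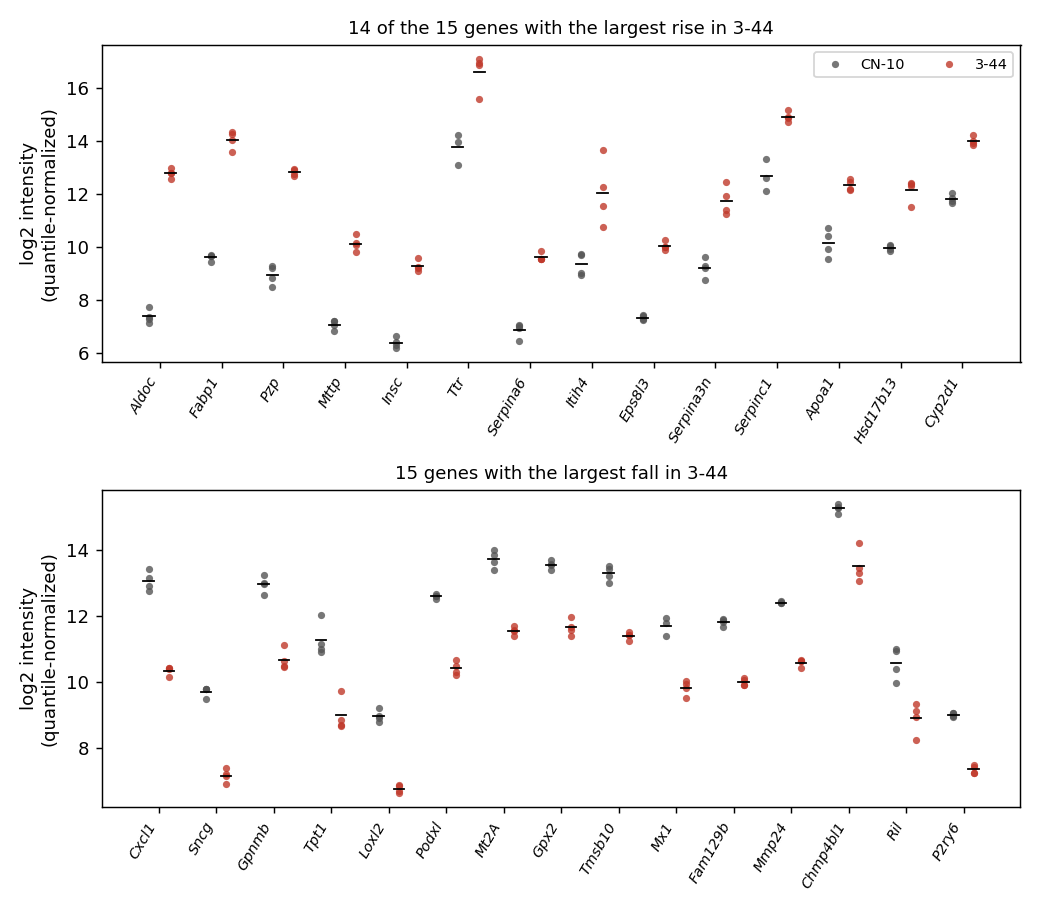
Log2 intensity (quantile-normalized) of 14 of the 15 genes with the largest rise (top) and the 15 with the largest fall (bottom) in 3-44 against CN-10; each point is 1 array and each black bar the group mean. *Aldoc* read 7.30, 7.15, 7.76 and 7.38 in CN-10 and 12.79, 12.80, 12.55 and 12.99 in 3-44, and *Itih4* had the widest spread among 3-44 arrays (11.53, 13.66, 12.24 and 10.76).

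**Figure D2:**
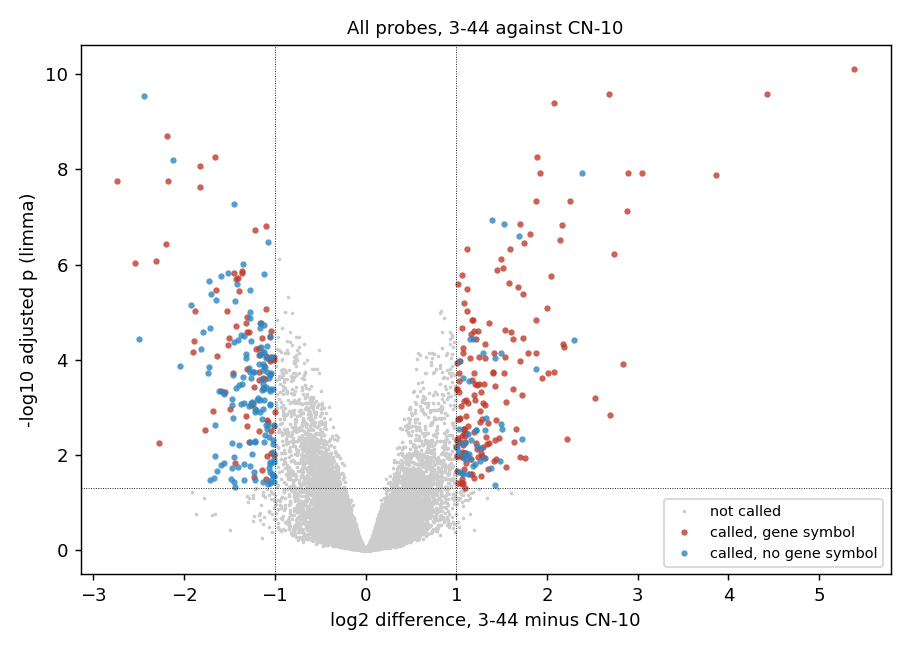
Log2 difference (3-44 minus CN-10, x axis) against -log10 of the limma adjusted p (y axis) for every probe; dotted lines mark 2-fold and an adjusted p of 0.05. Called probes with a gene symbol (red) lie mostly on the higher side, 161 against 78, and those without one (blue) mostly on the lower side, 141 against 46.

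The largest rise was that of *Aldoc*, which encodes aldolase C, the glycolytic aldolase of brain. Its 2 probes, chr10:64308833-64308892 and chr10:64309543-64309602 on rn4, both on the minus strand, are shown because 2 separate stretches of the gene gave the same direction:
Aldoc brighter probe: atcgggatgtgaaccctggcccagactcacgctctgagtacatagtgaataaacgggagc
Aldoc dimmer probe: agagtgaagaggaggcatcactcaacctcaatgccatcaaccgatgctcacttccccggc
The brighter probe read 7.30, 7.15, 7.76 and 7.38 in CN-10 and 12.79, 12.80, 12.55 and 12.99 in 3-44, a log2 difference of 5.38 ± 0.16 SE or 41.7-fold (adjusted p = 7.62e-11). The dimmer probe, well above background on 2 of 4 CN-10 arrays, rose by 2.26 (adjusted p = 4.62e-08). *Slc2a2*, the liver glucose transporter GLUT2, rose by 1.22 (adjusted p = 3.62e-05). In the list of 25 glycolysis and fructose genes 3 were called higher, *Aldoc* and *Slc2a2* among them, and none lower, and the list's median log2 difference was 0.23 beside -0.0078 over all genes. Of the 16 gluconeogenesis and glycogen genes, 3 were called higher and none lower (median 0.18), and they carry the committed steps of glucose output. *G6pc*, glucose-6-phosphatase, read 12.53, 12.56, 12.54 and 12.73 in CN-10 and 14.83, 14.63, 14.51 and 14.69 in 3-44 (2.08 ± 0.08 SE, adjusted p = 3.92e-10), and its second probe gave 2.01 (adjusted p = 0.000185). The cytosolic and mitochondrial phosphoenolpyruvate carboxykinases, *Pck1* and *Pck2*, rose by 1.26 (adjusted p = 0.00204) and 1.36 (adjusted p = 0.0056). With either processed signal *Pck2* gave 0.85 to 0.86 and was not called. The *G6pc* arrays did not overlap between the clones, as in 199 of the 207 called higher probes.

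Rises were also found in lipid transport and fatty acid use. *Fabp1*, the fatty acid binding protein of hepatocyte cytosol, read 9.45, 9.67, 9.72 and 9.65 in CN-10 and 14.04, 14.32, 13.56 and 14.25 in 3-44, a 21.4-fold difference (4.42 ± 0.15 SE, adjusted p = 2.54e-10). *Mttp*, which loads triglyceride onto apolipoprotein B, read 7.21, 6.85, 7.08 and 7.21 and 10.49, 10.15, 10.09 and 9.80 (3.04 ± 0.15 SE, adjusted p = 1.18e-08). *Hsd17b13*, an enzyme of the lipid droplet surface, rose by 2.17 (adjusted p = 4.71e-05). Of 21 lipoprotein and lipase genes, 5 were called higher and none lower (median 0.29). Besides *Mttp* they were *Apoa1*, the main protein of high density lipoprotein (2.18, adjusted p = 5.47e-05), *Apoc3*, an inhibitor of lipoprotein lipase (1.73, adjusted p = 0.000552), *Apoa4* (1.25, adjusted p = 0.000328) and *Lipc*, hepatic lipase (1.49, adjusted p = 7.74e-07). *Apoa1* read 10.73, 9.93, 10.42 and 9.55 in CN-10 and 12.57, 12.16, 12.17 and 12.47 in 3-44, so the CN-10 arrays were the more scattered. The 30 fatty acid oxidation and ketogenesis genes had 5 called higher and none lower (median 0.32), and 3 called without 3-44 replicate 1. Among them were *Angptl4*, a secreted lipase inhibitor induced in fasting (1.79, adjusted p = 7.15e-05), *Eci1*, an isomerase for unsaturated fatty acids (1.44, adjusted p = 0.0124), *Acadvl*, very long chain acyl-CoA dehydrogenase (1.06, adjusted p = 0.0109), and the peroxisomal thiolase *Acaa1a*, called on its dimmer probe (1.08, adjusted p = 0.000742) while the brighter gave 0.60 (adjusted p = 0.0257). *Acadvl* lost its call without CN-10 replicate 2, or without 3-44 replicate 1 (log2 difference 0.94 to 0.98 there, adjusted p 0.0317 to 0.043). With either processed signal *Acadvl* gave 0.53 and was not called. *Acaa1a* lost its call without 3-44 replicate 1 (log2 difference 0.99 there, adjusted p 0.00268).

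Sterol synthesis had the highest median of the 41 lists, 0.47 over 26 genes, with few members past 2-fold. *Fdps*, farnesyl diphosphate synthase, read 14.33, 14.25, 14.06 and 14.43 in CN-10 and 15.75, 15.54, 15.68 and 15.36 in 3-44 (1.31 ± 0.14 SE, adjusted p = 4.59e-05), and *Nsdhl*, a demethylating enzyme of the later steps, rose by 1.08 (adjusted p = 0.00285). The dimmer *Fdps* probe gave 0.71 (adjusted p = 0.089). With either processed signal the brighter one gave 0.76 to 0.81 and was not called. At an adjusted p under 0.05 without a fold limit, 8 of the 26 genes were higher and 1 lower, against 3.45% and 4.69% of all genes. By the same measure 11 of 30 fatty acid oxidation genes and 9 of 30 hypoxia response genes were higher and none lower. Because the lists were picked after earlier results of these data had been seen, these counts do not test enrichment. *Mlxipl*, the glucose-sensing transcription factor ChREBP, was the 1 called gene among 25 of fatty acid and triglyceride synthesis (1.03, adjusted p = 0.00177). *Nsdhl* lost its call without CN-10 replicate 2, or without 3-44 replicate 1 (log2 difference 0.92 to 0.99 there, adjusted p 0.00994 to 0.0102). *Mlxipl* lost its call without CN-10 replicate 4, or without 3-44 replicate 1 (log2 difference 0.86 to 0.92 there, adjusted p 0.00355 to 0.007). The fatty acid synthesis list held 2 calls without CN-10 replicate 1, 3-44 replicate 2 or 3-44 replicate 3, through *Lpin1* (0.987 on all arrays, 1 to 1.06 there). The sterol list had 4 calls without CN-10 replicate 4, *Acat3* (1.06, adjusted p = 0.0435) among them.

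Several of the largest rises were in secreted liver proteins. The hepatocyte marker list, which read higher as given above, holds *Ttr* and *Apoa1* from among these rises, so its level is not independent of theirs. They were its only called members of 14, and its median log2 difference was 0.53. *Ttr*, transthyretin, carrier of thyroid hormone and retinol-binding protein, read 13.10, 13.96 and 14.22 on the 3 CN-10 arrays with a valid spot and 15.56, 16.93, 16.85 and 17.07 in 3-44 (2.84 ± 0.34 SE, adjusted p = 0.000125). *Serpina6*, corticosteroid-binding globulin, read 7.08, 6.96, 7.05 and 6.47 in CN-10 and 9.85, 9.55, 9.56 and 9.57 in 3-44 (2.74 ± 0.20 SE, adjusted p = 5.86e-07). The clones did not overlap in either gene, as in 199 of the 207 called higher probes. *Ambp*, precursor of alpha-1-microglobulin and bikunin, rose by 1.88 (adjusted p = 7.11e-05), *Itih4*, an inter-alpha-trypsin inhibitor chain, by 2.70 (adjusted p = 0.00146), and *Fga*, fibrinogen alpha chain, by 1.66 (adjusted p = 0.00289). These 5 were the called members among 25 plasma protein genes, and none was called lower (median 0.24). Outside that list, *Pzp*, a wide-range protease inhibitor of the alpha-2-macroglobulin family, read 8.85, 8.49, 9.28 and 9.22 in CN-10 and 12.77, 12.95, 12.90 and 12.66 in 3-44, a 14.5-fold rise (3.86 ± 0.20 SE, adjusted p = 1.29e-08). In the coagulation list, 3 of 25 genes were called higher and 1 lower. Factor X (*F10*) rose from 6.60 ± 0.05 to 8.52 ± 0.21 (1.92, adjusted p = 1.18e-08), *Serpinf2*, the plasmin inhibitor, rose by 1.74 (adjusted p = 3.48e-07), and *Serpinc1*, antithrombin, by 2.23 (adjusted p = 0.00457) over 3 CN-10 arrays, 1 spot having been set aside. A dim second *Serpinc1* probe gave -0.06. *F3*, tissue factor, a membrane protein rather than a plasma protein, fell (-1.04, adjusted p = 2.49e-05). *F3* lost its call without CN-10 replicate 3, or without 3-44 replicate 4 (log2 difference -0.97 to -0.95 there, adjusted p 7.35e-05 to 0.000123).

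Among 29 complement genes, *C2* (1.31, adjusted p = 0.000326) and *C4bpa*, a regulator of the classical pathway (1.62, adjusted p = 0.000407), rose, while *C5*, whose product starts the membrane attack complex, fell. *C5* read 10.10, 10.26, 10.20 and 10.22 in CN-10 and 8.56, 9.01, 8.79 and 8.71 in 3-44 (-1.42 ± 0.12 SE, adjusted p = 2.05e-06), with small spread in both clones. In the acute phase list of 24 genes, *Serpina3n* (2.53, adjusted p = 0.000637), *Saa4* (1.11, adjusted p = 0.000705) and the alpha-1-inhibitor *A1i3* (1.06, adjusted p = 0.00401) were called higher and none lower, but the list's median was 0.003. *Saa4* lost its call without 3-44 replicate 4 (log2 difference 0.91 there, adjusted p 0.000379). *A1i3* lost its call without CN-10 replicate 2, or without 3-44 replicate 2 or 4 (log2 difference 0.97 to 1.00 there, adjusted p 0.016 to 0.018). Without 3-44 replicate 4 the list kept 1 call.

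The cytochrome P450 list had 2 of 34 genes called higher and 1 lower. *Cyp2d1* rose from 12.04, 11.83, 11.74 and 11.66 in CN-10 to 14.20, 13.84, 13.98 and 13.90 in 3-44 (2.17 ± 0.14 SE, adjusted p = 1.47e-07) and *Cyp3a18* from 7.85, 7.46, 7.83 and 7.78 to 9.72, 9.59, 9.67 and 9.51 (1.89 ± 0.09 SE, adjusted p = 5.54e-09), whereas *Cyp2b3* fell by 1.06 on the log2 scale (adjusted p = 0.000201). P450 genes of a subfamily are alike in sequence, so a probe may bind more than 1 of them. Of 43 glutathione and detoxification genes, *Gstm2* (1.43, adjusted p = 0.000355), *Mgst3* (1.02, adjusted p = 0.00177) and *Aox1*, aldehyde oxidase (1.32, adjusted p = 0.000909), rose. *Gpx2*, the epithelial glutathione peroxidase, fell on both probes, reading 13.70, 13.55, 13.59 and 13.39 in CN-10 and 11.99, 11.68, 11.39 and 11.56 in 3-44 on the brighter (-1.90 ± 0.22 SE, adjusted p = 6.91e-05). Among 36 genes of bile acid and drug transport, 3 were called higher and none lower: *Baat*, which joins bile acids to glycine or taurine, rose by 1.52 (adjusted p = 0.000186), the transporter *Abcc6* by 1.20 (adjusted p = 0.000191) and the uptake carrier listed as *Slco1b3* (now *Slco1b2*) by 1.20 (adjusted p = 0.000552). *Mgst3* lost its call without CN-10 replicate 1, or without 3-44 replicate 1 (log2 difference 0.83 to 0.91 there, adjusted p 0.00225 to 0.00592).

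Among 24 liver transcription factors, 5 were higher and 3 lower at an adjusted p under 0.05, and only *Nr5a2*, the nuclear receptor LRH-1, passed 2-fold (1.07, adjusted p = 0.00861). Its second probe gave 0.17 (adjusted p = 0.771). *Dbp*, a clock-controlled factor of liver, rose on all 3 of its probes (1.00, 1.54 and 1.02), the only called gene of 18 clock genes. Of 30 hypoxia response genes, *Ankrd37* read 7.69, 7.62, 7.65 and 7.64 in CN-10 and 8.94, 9.08, 9.13 and 9.52 in 3-44 (1.52 ± 0.12 SE, adjusted p = 1.2e-06), and the vasodilator peptide *Adm* rose by 1.27 (adjusted p = 0.0274), with replicate 4 of 3-44 at 12.53 and the others at 10.31 to 11.09. *Vegfa* was called on the dimmest of 4 probes alone (1.23, adjusted p = 0.00742), while the brightest gave 0.10 (adjusted p = 0.859). Without 3-44 replicate 1 this list held 5 calls, gaining *Egln1* (1.02, adjusted p = 0.00322) and *Ndrg1* (1.17, adjusted p = 0.0336). The glucocorticoid list of 24 genes had 3 called higher, *Serpina6*, *Angptl4* and *Pck1*, each also in another list, and *Mt2A* lower, with a median of -0.05. *Nr5a2* lost its call without CN-10 replicate 2 or 3, or without 3-44 replicate 1 (log2 difference 0.95 to 0.98 there, adjusted p 0.0269 to 0.0347). With either processed signal *Nr5a2* gave 0.643 to 0.645 and was not called. *Adm* lost its call without CN-10 replicate 1, 2, 3 or 4, or without 3-44 replicate 2 or 4 (log2 difference 0.83 to 1.33 there, adjusted p 0.0188 to 0.0736). The brightest *Dbp* probe lost its call without CN-10 replicate 3 or 4, or without 3-44 replicate 1 (log2 difference 0.94 to 0.99 there, adjusted p 0.000475 to 0.000725).

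Falls past 2-fold were found among chemokines, immediate early genes and TGF-beta targets. *Cxcl1*, a neutrophil-attracting chemokine, read 13.17, 12.92, 13.43 and 12.77 in CN-10 and 10.14, 10.41, 10.38 and 10.41 in 3-44, a 6.66-fold fall (-2.73 ± 0.14 SE, adjusted p = 1.76e-08). *Cxcl16* fell from 9.51, 9.38, 9.48 and 9.41 to 8.42, 8.16, 8.20 and 7.77 (-1.31 ± 0.12 SE, adjusted p = 1.27e-05) and *Cxcl2* by less (-1.01, adjusted p = 0.00247). These 3 were called among 29 chemokine and NF-kB target genes, none was called higher, and the list's median was -0.06, with 2 members higher and 4 lower at an adjusted p under 0.05. Among 38 immediate early and growth feedback genes, *Areg*, a ligand of the EGF receptor, fell by 1.15 on the log2 scale (adjusted p = 3.42e-05) and *Egr1* by 1.04 (adjusted p = 0.00307), the second *Egr1* probe giving -0.0044. The median of that list was -0.09. *Id1*, an inhibitor of basic helix-loop-helix factors and a BMP target, read 12.59, 12.62, 12.56 and 12.48 in CN-10 and 11.06, 11.52, 11.36 and 11.60 in 3-44 (-1.18 ± 0.16 SE, adjusted p = 0.00026), the 1 called gene of 24. Of 27 TGF-beta and YAP targets, *F3* and *Ctgf* (now *Ccn2*), a matricellular protein, fell. The list held 4 calls without 3-44 replicate 1, *Cyr61* (-1.02, adjusted p = 0.00405) among them, and 4 without 3-44 replicate 2, *Fst* (1.01, adjusted p = 0.0107) among them. *Ctgf* read 7.24, 7.23, 7.44 and 7.43 in CN-10 and had no 3-44 array well above background, so it was at least 2.02-fold lower (adjusted p = 1.53e-07). *Cxcl2* lost its call without CN-10 replicate 1, or without 3-44 replicate 1 (log2 difference -0.96 to -0.79 there, adjusted p 0.00115 to 0.00976). *Egr1* lost its call without CN-10 replicate 1 or 3, or without 3-44 replicate 2 or 3 (log2 difference -0.998 to -0.93 there, adjusted p 0.0121 to 0.0129).

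Some large falls were in single genes. *Sncg*, gamma-synuclein, read 9.77, 9.48, 9.78 and 9.78 in CN-10 and 6.89, 7.38, 7.20 and 7.15 in 3-44 (-2.55 ± 0.19 SE, adjusted p = 9.18e-07). *Gpnmb*, a transmembrane glycoprotein, read 13.26, 13.01, 12.99 and 12.64 and 11.13, 10.47, 10.63 and 10.44 (-2.31 ± 0.17 SE, adjusted p = 8.27e-07), and *Podxl*, a sialomucin of apical membranes, 12.61, 12.67, 12.62 and 12.53 and 10.30, 10.49, 10.22 and 10.67 (-2.19 ± 0.09 SE, adjusted p = 2e-09). All 3 genes separated the clones fully, as did all 219 called lower probes. *Loxl2*, a lysyl oxidase that crosslinks collagen, fell to near background (8.78, 8.89, 9.20 and 8.96 against 6.70, 6.83, 6.63 and 6.87, -2.20, adjusted p = 3.65e-07). *Mmp24*, a membrane metalloproteinase, fell by 1.82 on the log2 scale, *Tmsb10*, an actin-sequestering peptide, by 1.89, *Fam129b* (now *Niban2*) by 1.83, *Ril* (now *Pdlim4*), an actin-binding LIM protein, by 1.68, and *Emp2*, a membrane protein of epithelia, by 1.55, with adjusted p from 8.29e-09 to 0.00119. The second, dimmer *Fam129b* probe gave -0.53 (adjusted p = 0.119). *Mt2A*, a metallothionein, fell by 2.17 on the probe printed 10 times (adjusted p = 1.76e-08) and by 0.96 on the brighter single one (adjusted p = 6.31e-05), and *Mx1*, an interferon-induced antiviral GTPase, by 1.88 (adjusted p = 9.34e-06, 3 CN-10 arrays). *P2ry6*, a receptor for UDP, fell by 1.66, the receptor *Sstr2* rose by 1.08, *Bcat2*, the mitochondrial branched-chain aminotransferase, fell by 1.44 on the brighter and 1.23 on the dimmer probe, and *Cox6a2*, a muscle form of a respiratory chain subunit, by 1.64, with adjusted p from 5.55e-09 to 0.000377. The other *Sstr2* probe gave 0.12 (adjusted p = 0.741). *Chmp4bl1* fell by 1.77 (adjusted p = 0.00299). *Tpt1*, the very abundant translationally controlled tumour protein, was called on its dimmest probe (-2.28, adjusted p = 0.00555), but the brightest gave 0.13 (adjusted p = 0.874), so its probes disagree. *Insc*, which orients asymmetric division, rose by 2.89 (adjusted p = 1.18e-08) from a level well above background on 1 CN-10 array only, and the difference was 5.97 with the quantile-normalized processed signal.

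Single calls also came from other lists. *Tfr2*, the hepatocyte sensor of transferrin iron, rose by 1.32 (adjusted p = 0.00416), the respiratory chain subunit *Ndufa9* by 1.28 (adjusted p = 0.0104), the folate enzyme *Aldh1l2* by 1.25 (adjusted p = 0.011) and *Sept7*, a septin, by 1.31 (adjusted p = 0.0116) over 3 CN-10 arrays. *Irf1*, an interferon-induced transcription factor, was called on its dimmer probe (1.04, adjusted p = 0.00169), while the brighter, with 3 valid arrays of 3-44, gave 0.90 (adjusted p = 0.223). Growth hormone receptor, *Ghr*, rose on the dimmest of 3 probes (1.04, adjusted p = 0.00527), the brightest on average giving 0.96 (adjusted p = 0.0171). The remaining *Ghr* probe gave 0.24 (adjusted p = 0.737). *Sema3c*, a secreted semaphorin, was called lower on a single-spot probe (-1.01, adjusted p = 0.01) beside -0.94 (adjusted p = 0.000323) on the one printed 10 times. *Irf1* lost its call without CN-10 replicate 1, or without 3-44 replicate 1 (log2 difference 0.96 there, adjusted p 0.00615 to 0.0072). *Ghr* lost its call without 3-44 replicate 1 (log2 difference 0.94 there, adjusted p 0.0174). *Sema3c* lost its call without CN-10 replicate 3 or 4, or without 3-44 replicate 3 or 4 (log2 difference -0.99 to -0.85 there, adjusted p 0.0297 to 0.0361). *Sept7* lost its call without CN-10 replicate 1 (log2 difference 0.93 there, adjusted p 0.0441). With either processed signal *Ndufa9* gave 0.80 and was not called, and it also lost its call without replicate 1 of all groups.

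In all, 53 genes of the lists were called higher and 19 lower, of 1172 measured, beside 0.746% and 0.826% of all genes. The lists and their members were picked after earlier results of these data had been seen. The all-gene shares also take in genes near background. The comparison therefore cannot show that calls are enriched in the lists, and the same limit holds for the list medians. 8 of the 41 lists held no called gene: extracellular matrix and integrins (38 genes, median -0.04), cell cycle and DNA replication (39, -0.05), p53 targets (23, -0.05), the unfolded protein response (26, 0.11), cytosolic chaperones (23, -0.10), Wnt targets (31, 0.01), ribosomal proteins (48, -0.04) and the proteasome (37, -0.06). Over all genes 1.57% were called, a share at which lists of this size hold few calls or none. In the cell cycle list no gene passed an adjusted p of 0.05 at any fold. In the other lists without a call, the largest differences with an adjusted p under 0.05 were *Btg2*, an antiproliferative p53 target (0.99, adjusted p = 0.0456), *Hspa1b*, the inducible HSP70 (0.96, adjusted p = 7.53e-05), *Wnt4* (0.84, adjusted p = 0.0223), *Trib3*, a stress-induced pseudokinase (-0.75, adjusted p = 0.00883), *Itga1*, a collagen-binding integrin (0.72, adjusted p = 0.000113), *Psmb8*, an immunoproteasome subunit (0.64, adjusted p = 0.000597), and *Rps24*, a ribosomal protein (-0.32, adjusted p = 0.0377), whose direction turned with the processed signal scaled to the 75th percentile (0.101). *Btg2* passed both limits without CN-10 replicate 3 (1.20) or 3-44 replicate 3 (1.27), and *Hspa1b* without 3-44 replicate 3 (1.02). Without CN-10 replicate 1 the p53 list gained *Gadd45a* (-1.04, adjusted p = 0.000473), and without CN-10 replicate 4 the unfolded protein response list gained *Pdia4* (1.47, adjusted p = 0.0118).

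**Figure D3:**
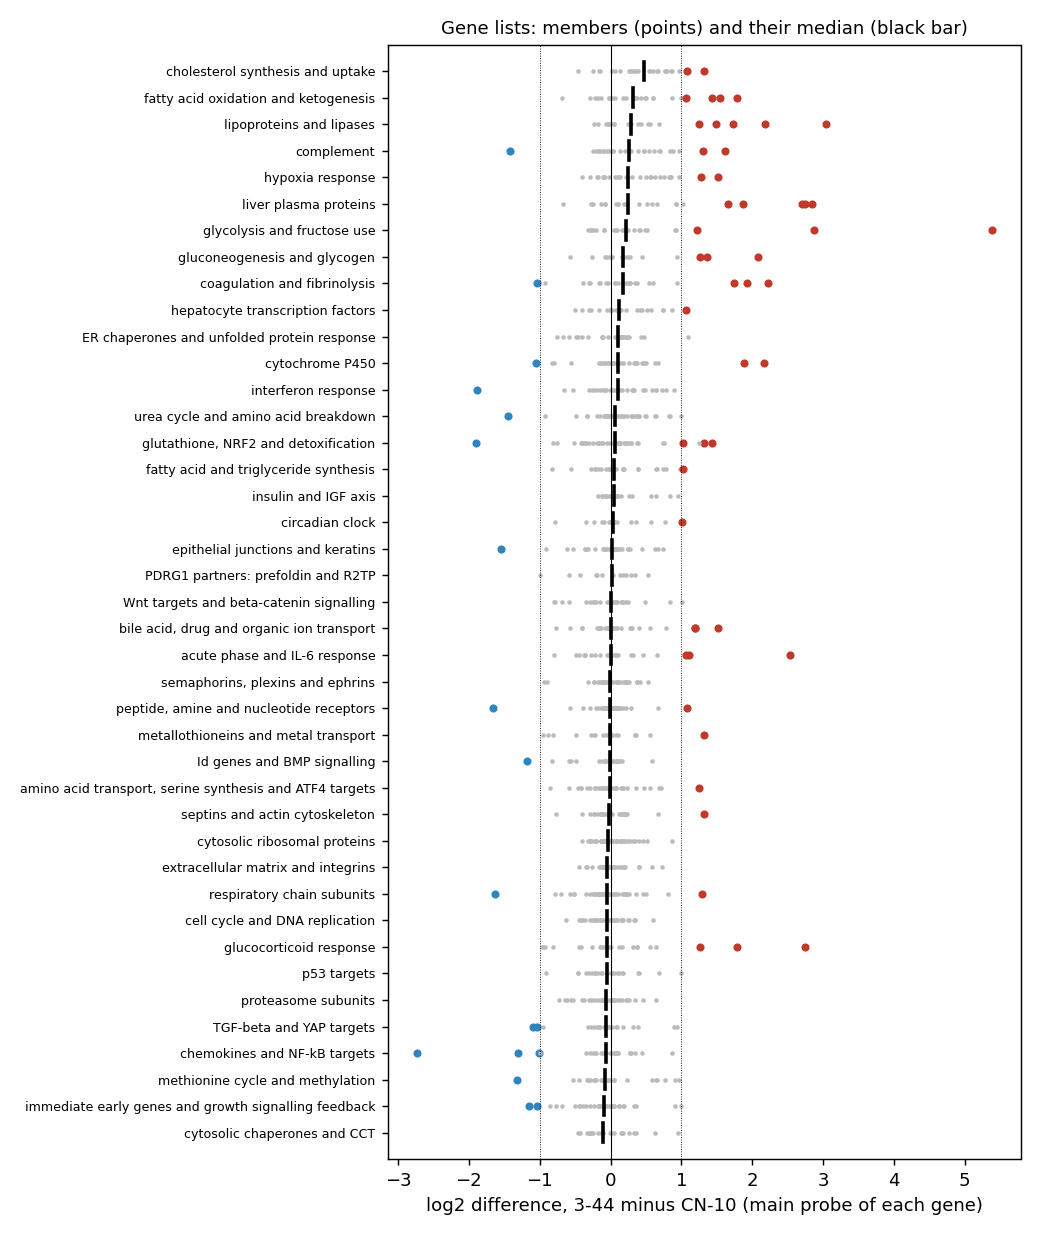
Log2 difference (3-44 minus CN-10) of the main probe of every gene in the 41 lists, 1 row per list, ordered by the median (black bar); red and blue points are main probes called higher and lower, and dotted lines mark 2-fold. The median runs from -0.10 (cytosolic chaperones) to 0.47 (cholesterol), and the points far to the right belong to glycolysis, lipoproteins and plasma proteins.

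The promoters of 4 of these genes are shown, from the RefSeq promoter table on build GRCr8, 250 bases before to 50 after the gene start, as examples of motifs searched on both strands. Capitals mark the match.
Cxcl1 (chr14:17479272-17479571, minus strand): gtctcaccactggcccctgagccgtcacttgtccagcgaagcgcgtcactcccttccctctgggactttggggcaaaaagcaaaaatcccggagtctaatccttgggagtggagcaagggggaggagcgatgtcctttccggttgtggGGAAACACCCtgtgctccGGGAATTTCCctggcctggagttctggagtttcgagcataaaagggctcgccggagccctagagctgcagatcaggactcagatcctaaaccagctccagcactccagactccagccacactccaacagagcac
Aldoc (chr10:63715294-63715593, plus strand): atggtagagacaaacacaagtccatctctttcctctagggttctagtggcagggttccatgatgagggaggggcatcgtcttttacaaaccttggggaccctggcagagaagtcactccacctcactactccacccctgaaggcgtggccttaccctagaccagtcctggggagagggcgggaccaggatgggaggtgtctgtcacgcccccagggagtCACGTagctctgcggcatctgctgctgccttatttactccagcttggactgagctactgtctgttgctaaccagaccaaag
G6pc1 (chr10:86807409-86807708, plus strand): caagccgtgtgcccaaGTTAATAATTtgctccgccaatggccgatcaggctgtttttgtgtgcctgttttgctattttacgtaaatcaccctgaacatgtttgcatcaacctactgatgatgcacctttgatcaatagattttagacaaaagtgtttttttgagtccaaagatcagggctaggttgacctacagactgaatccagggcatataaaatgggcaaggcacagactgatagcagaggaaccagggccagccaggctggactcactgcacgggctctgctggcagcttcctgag
Lgals4 (chr1:93252035-93252334, plus strand): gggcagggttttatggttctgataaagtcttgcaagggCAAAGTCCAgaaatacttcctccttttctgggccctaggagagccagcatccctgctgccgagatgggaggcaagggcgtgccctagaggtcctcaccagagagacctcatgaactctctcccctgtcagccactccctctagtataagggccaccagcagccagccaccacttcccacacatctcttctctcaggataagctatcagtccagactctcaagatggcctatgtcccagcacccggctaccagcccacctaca
In *Cxcl1* the capitals are 2 matches to the kappaB motif of NF-kB (GGG, any 2 bases, TTTCC), starting 102 and 84 bases before the gene start, in *Aldoc* the hypoxia element core ACGTG, 31 bases before it, in *G6pc1* (*G6pc* on the array) the HNF1 motif (GTTAAT, any base, ATT), 234 before, and in *Lgals4* the letters CAAAGTCCA, part of the direct repeat bound by HNF4 and PPAR, 212 before. Promoters were matched for 141 higher and 63 lower genes out of 33469 in the table. In all, 7 motifs were searched. CAAAGTCCA stood in 7 promoters of higher genes (4.96%), in none of the lower ones and in 0.391% of all promoters of this length. The HNF1 motif stood in 2 of the higher and 1 of the lower promoters, against 0.335% of all. The kappaB motif stood in 4.26% of the higher, 3.17% of the lower and 1.53% of all. ACGTG stood in 17.7%, 19% and 19.3% respectively. In the same order, the D-box TTATGTAA, the site of DBP, stood in 0.709%, 0% and 0.893%, the TATA box TATAAA in 8.51%, 14.3% and 14.2%, and CCAAT in 48.9%, 31.7% and 37.5%. A match is a description of the letters in this window and not evidence of binding.

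The direct comparison with shRNA3T asks which levels of the stable clone also differ from cells given the same hairpin without cloning, and that with 4-18 which differ from a clone made with another hairpin. Against shRNA3T, 259 genes were higher (0.986%) and 321 lower (1.22%) in 3-44, or 2.21% together, and against 4-18, 820 were higher (3.12%) and 581 lower (2.21%), or 5.33% together. With 75th percentile scaling in place of quantile normalization, 10694 genes were called against 4-18. All 3 comparisons of 3-44 use the same 3-44 arrays, replicate 1 included, so their calls are not independent of each other. *Aldoc* (-0.36, adjusted p = 0.187), *Mttp* (0.13, adjusted p = 0.705) and *Serpina6* (-0.13, adjusted p = 0.776), all higher than in CN-10, were among the genes without a detectable difference from shRNA3T. Some rises were smaller in the clone than in the pool: against shRNA3T, 3-44 was lower in *Itih4* (-2.58, adjusted p = 0.00162), *Serpina3n* (-2.15, adjusted p = 0.00177), *Angptl4* (-2.12, adjusted p = 1.25e-05) and *Pck1* (-1.29, adjusted p = 0.00136). Likewise the falls of *Id1* (1.61, adjusted p = 1.46e-05), *Cox6a2* (1.14, adjusted p = 0.00132), *Gpx2* (1.10, adjusted p = 0.0043) and *Gpnmb* (1.01, adjusted p = 0.00123) left 3-44 above shRNA3T. Among the lower genes, *Podxl* did not differ detectably from shRNA3T (0.05, adjusted p = 0.816). However, 89 of the 217 genes called lower against CN-10 were also called lower against shRNA3T, and 24 against 4-18. Of the 196 called higher, 20 were also called higher against shRNA3T and 59 against 4-18.

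The same probe was called in the same direction against all 3 other groups for 15 genes higher (0.0571%) and 9 lower (0.0343%), or 0.0914% together. *Eps8l3*, a partner of the actin regulator EPS8, read 7.25, 7.41, 7.44 and 7.31 in CN-10, 10.26, 9.99, 10.01 and 9.88 in 3-44, 8.24, 8.57, 8.52 and 8.42 in shRNA3T and 6.33, 6.31, 6.49 and 6.43 in 4-18. It was highest in 3-44 and lowest in 4-18 with no overlap of any groups, at 2.68 (adjusted p = 2.54e-10) against CN-10 and 1.60 (adjusted p = 2.51e-07) against shRNA3T. *Apoa1* read 10.02, 10.23, 10.20 and 10.32 in shRNA3T and 7.98, 7.49, 8.67 and 8.03 in 4-18 (2.15 and 4.30 for 3-44 minus each, adjusted p = 4.89e-05 and 1.18e-08), so its rise against CN-10 was not matched in either. *Cd14*, a lipopolysaccharide co-receptor that macrophages and hepatocytes make, read 8.42, 8.71, 9.11 and 9.09 in CN-10 and 11.26, 10.77, 10.85 and 10.64 in 3-44 (2.04, adjusted p = 1.73e-06). The other 10 macrophage and leukocyte markers measured had no call, and their list with *Cd14* averaged 7.02 to 7.07 on CN-10 arrays and 7.12 to 7.24 on 3-44 arrays, with a median log2 difference of -0.09 over its members. *Cyp3a18* (1.36 against shRNA3T and 3.23 against 4-18) and *Lgals4*, galectin-4 (1.05 and 1.38 on its dimmer probe), completed the 5 with the largest differences from CN-10. The brighter *Lgals4* probe was not called against all 3 groups. On the lower side *C5* read 11.12, 11.14, 11.15 and 11.50 in shRNA3T and 12.24, 12.39, 12.14 and 12.55 in 4-18, both above CN-10 and further above 3-44 (3-44 minus each -2.46 and -3.56, adjusted p = 2.77e-08 and 3e-11). *Loxl2* (-1.71 and -1.68) and *Ril* (-1.71 and -1.47) were also lower than both. The other higher genes with a symbol were *Apoc3*, *Tmem86b*, *Anxa13*, *Aldh1b1*, *Pck2*, *Magix*, *Dapk2* and *Haus8*. Without replicate 1 of 3-44 the counts were 8 higher (*Eps8l3*, *Apoa1*, *Apoc3*, *Cyp3a18*, *Tmem86b*, *Anxa13*, *Aldh1b1* and *Dapk2*) and 9 lower, the latter without TC585624 and A_64_P089375 and with *Mt2A* and *Cidea*.

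**Figure D4:**
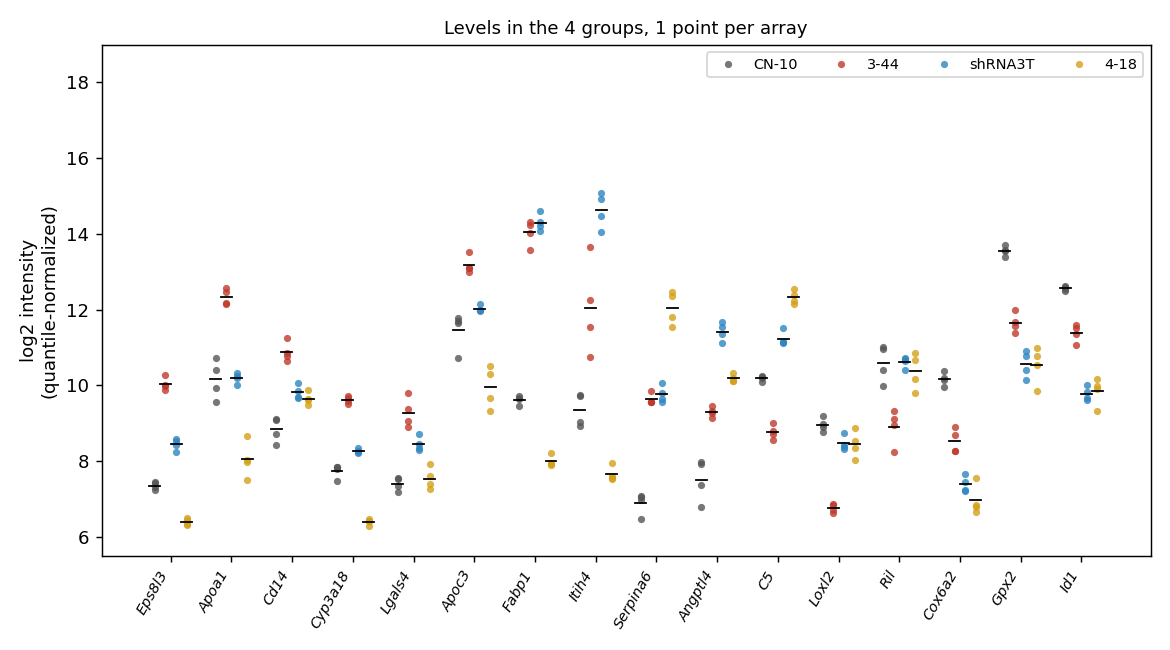
Log2 intensity (quantile-normalized) of 16 genes in CN-10, 3-44, shRNA3T and 4-18; each point is 1 array and each black bar the group mean, and the legend gives the colour of each group. *Eps8l3*, *Apoa1*, *Cd14*, *Cyp3a18*, *Lgals4* and *Apoc3* are highest in 3-44, while *C5*, *Loxl2* and *Ril* are lowest there.

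Most of the falls lay in probes for which the array gives no gene symbol (a probe ID, a locus number, an EST cluster or an Ensembl transcript). Of 11645 such probes, 141 were called lower (1.21%) and 46 higher (0.395%). Of 18722 probes with a symbol, 78 were called lower (0.417%) and 161 higher (0.86%). The median GC content of the 141 lower probes without a symbol was 43.3%, against 45% over all probes. Without replicate 1 of 3-44, 120 were lower and 52 higher. Because the array gives these probes no gene symbol, 3 of the largest falls are shown, on rn4 at chr10:79284381-79284440 (plus strand), chrX:91950886-91950945 (plus) and chr10:46828341-46828400 (minus):
RGD1564550: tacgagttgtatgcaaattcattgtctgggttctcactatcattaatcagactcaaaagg
A_64_P012116: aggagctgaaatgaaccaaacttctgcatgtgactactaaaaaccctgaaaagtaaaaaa
A_64_P089375: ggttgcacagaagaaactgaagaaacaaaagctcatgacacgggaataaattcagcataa
RGD1564550 read 12.09, 12.04, 11.98 and 11.78 in CN-10 and 9.75, 9.44, 9.46 and 9.24 in 3-44 (-2.50 ± 0.27 SE, adjusted p = 3.69e-05). A_64_P012116 read 12.85, 12.74, 12.56 and 12.46 and 10.43, 10.59, 10.53 and 10.58 (-2.12 ± 0.10 SE, adjusted p = 6.3e-09), and A_64_P089375 13.23, 13.21, 13.001 and 12.95 and 10.60, 11.42, 11.29 and 11.40 (-1.92 ± 0.17 SE, adjusted p = 7.1e-06). Against shRNA3T the 3 differed by -2.67, -1.99 and -2.04, and against 4-18 by -0.03, -1.14 and -1.08. A_64_P012116 and A_64_P089375 were called lower against each group, the latter not without replicate 1 of 3-44, and RGD1564550 did not differ detectably from 4-18 (adjusted p = 0.952). Of the 141 lower probes without a symbol, 72 were also called lower against shRNA3T but only 9 against 4-18.

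Called genes were also laid out along the rn4 chromosomes, in 254 windows of 10 Mb with at least 20 probes well above background, as a description without a test. Between the quartiles, window medians lay from -0.06 to 0.02. The highest was chromosome 13 from 40 to 50 Mb, where 84 of 110 probes were above 0, the median was 0.31, and 11 probes were called higher and 1 lower. The higher ones were *Mapkapk2*, *Rabif*, *Adipor1*, *Nr5a2*, *Srgap2*, *Etnk2*, *C4bpa*, *Tmem183a* and *Arl8a*, with *Mapkapk2* and *Rabif* on 2 probes each. The lowest window was chromosome 11 from 80 to 90 Mb, with 26 of 121 probes above 0 and a median of -0.34. In both windows 3-44 was close to shRNA3T (medians of 0.04 and 0.0028) and to 4-18 (0.09 and -0.02). Chromosome 3 from 40 to 50 Mb had a median of -0.26 over 36 probes with no call, and there 3-44 was also below shRNA3T (-0.38) and 4-18 (-0.26). The window that holds the *Pdrg1* probe, chromosome 3 from 140 to 150 Mb, ranked 11 from the lowest. It had 51 of 164 probes above 0 and a median of -0.15, with 7 probes called lower, *Id1* and *Dnmt3b* among them, and 1 higher. Over chromosome 3 as a whole, 21 of 1302 probes were called lower and 5 higher.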

How the data were processed

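Total RNA of H35 cells was labelled with Cy3 and hybridized by the authors to Agilent rat 4x44K arrays, 1 colour, 4 biological replicates per group. Deposited scanner files hold intensity per spot from Feature Extraction 10.7.3.1, and the deposited series table holds the authors' background-corrected log2 values on another scale, equal to normexp-corrected medians and not scaled between arrays. The authors' notes name limma. Here gMeanSignal and gBGMedianSignal intensity was corrected with normexp (offset 50) on all spots and the 1377 control spots dropped, leaving 42877. Values were quantile-normalized and outlier-flagged spots set aside, and spots of 1 probe were averaged (30367 probes, 26269 gene names). limma 3.58.1 (R 4.3.3) fitted 1 mean per group over 16 arrays, with Benjamini-Hochberg adjustment over all probes. A call needs 2-fold and an adjusted p under 0.05. A gene's main probe is its brightest over the 16 arrays, and where another probe was called in its place both are given.

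The genes named were the 15 largest and 15 smallest differences among called symbols well above background on all 4 arrays of a group, called members of 41 lists, *Pdrg1*, *Mat1a* and *Mat2a*, the 5 highest and up to 5 lowest such symbols called against all 3 groups, and the largest significant member of lists without a call. *C5*, *Loxl2* and *Ril* were the only symbols called lower against all 3. Some genes that the rule names are not reported here. Members and lists were chosen with earlier results of these data known. On data simulated for 3-44 against CN-10 over 17841 probes, 95 of 100 3-fold and 99 of 100 6-fold changes were recovered, with 1 unchanged probe called. Of the probes, 18006 matched the RefSeq table (GRCr8) by accession, 3426 under another symbol, and names are those of the files unless said. Array positions are rn4. Precision is limited by 4 arrays per group. Alternatives were 5 other scalings or signals, a filter on dim probes, only the groups compared, array weights, outlier spots kept, other fold limits, a replicate block and arrays left out.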

Additional observations from a re-analysis of the deposited data

Results flagged for a closer look

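In 15 of 190 sets of 4 arrays (a named gene in CN-10 or in 3-44), 1 array lay far from the others by Dixon's test at 95%, which marks about 1 in 20 sets by chance, and 6 of the 15 were a low replicate 1 of 3-44. These were *Pdrg1* (11.89, nearest 12.86), *Mat1a* (10.58, nearest 11.87), *Ttr* (15.56, nearest 16.85), *Hsd17b13* (11.52, nearest 12.29), *Cxcl2* (7.19, nearest 8.03) and *Cxcl1* (10.14, nearest 10.38). The same array was the highest in *Mlxipl* (10.97, nearest 10.36), *Serpina6* (9.85, nearest 9.57) and *Tfr2* (11.07, nearest 10.62). Replicate 4 of 3-44 was the highest in *Emp2* (7.86, nearest 6.65) and the lowest in *Cyp2b3* (13.46, nearest 13.64). In CN-10 a single array was lowest in *Acadvl* (11.25, nearest 11.70), *Apoc3* (10.71, nearest 11.64) and *Sncg* (9.48, nearest 9.77) and highest in *Lipc* (9.71, nearest 9.46).

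Of the genes chosen by the naming rule, 10 were called in opposite directions against CN-10 in 3-44 and in 4-18, with the difference between these clones itself called in limma. For *Fabp1* the 3-44 minus 4-18 log2 difference was 6.05, its difference from CN-10 being 4.42 in 3-44, 4.68 in shRNA3T and -1.63 in 4-18. The other liver genes of this kind were *Itih4* (4.40), *Apoa1* (4.30), *Apoc3* (3.24), *Cyp3a18* (3.23), *Saa4* (3.03), *Fga* (2.91) and *A1i3* (2.33), all lower in 4-18 than in CN-10. *C5* (-3.56) and *Bcat2* (-3.24) were lower in 3-44 and higher in 4-18 than in CN-10. In shRNA3T, *C5* also differed from CN-10 upwards (1.03) and *Bcat2* downwards (-1.51). Outside the rule, *Anxa13* (4.29) and *Mug1* (3.38) were higher in 3-44 and lower in 4-18 than in CN-10, and *Lcp1* (-5.21) was lower in 3-44 and higher in 4-18. These comparisons share the CN-10 arrays.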

How the results depend on the processing

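Counts of called genes are given for 3-44 against CN-10, shRNA3T, 4-18 and all 3 groups, in this order (413, 580, 1401 and 24). They were 826, 1014, 3181 and 54 with the software's processed signal scaled to the 75th percentile, 701, 1021, 3129 and 45 with it quantile-normalized, 196, 340, 2525 and 6 on the deposited values without scaling, 1390, 1809, 3826 and 183 at a 1.5-fold limit and 144, 203, 836 and 9 with limma's treat against 1.5-fold. Scaling normexp values to the 75th percentile gave 10694 against 4-18. The causes were not tested. Against CN-10, 196 higher and 217 lower genes became 246 and 580 with the percentile-scaled processed signal and 58 and 138 on the deposited values. The median of all genes stayed within 0.1 of 0 under all 5 scalings and signals. With 1 array of CN-10 or 3-44 left out, the 4 counts ran 367 to 442, 520 to 608, 1353 to 1431 and 17 to 27, and *Pdrg1* from -1.09 to -0.74. *Pdrg1* was lower in every alternative run and never passed both limits, while its adjusted p fell to 0.0378 with the 8 arrays alone, 0.00892 with array weights and 0.000306 without replicate 1 of all groups. *Rps24*, not called, turned to 0.101 with the percentile-scaled processed signal. Of 89 named called genes none reversed, and 38 lost the call on the deposited values, 41 with treat, 15 with either processed signal, 13 with percentile scaling and 11 without replicate 1 of 3-44.

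With the processed signal, quantile-normalized, differences grew over 1.5 times for *Insc* (5.97), *Serpina6* (4.30), *Loxl2* (-3.80), *F3* (-1.82), *F10* (3.57), *C4bpa* (2.78), *Ctgf* (-4.37), *Emp2* (-3.27), *Areg* (-2.05), *Slco1b3* (1.84) and *Sstr2* (2.19) and shrank as much for *Polr2e* (0.74), *Pck2* (0.85), *Acadvl* (0.53), *Fdps* (0.76), *Nr5a2* (0.64) and *Ndufa9* (0.80). The processed signal scaled to the 75th percentile moved these genes alike, apart from *Slco1b3*. *Ctgf* had no 3-44 array well above background, so -4.37 is not a measured size of its fall.

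The labels give every group replicates 1 to 4. Deviations from the group mean correlated between same-numbered CN-10 and 3-44 arrays at 0.48, 0.138, -0.08 and 0.287, and 1 of 4 CN-10 arrays correlated best with its own number, so the numbers were not taken to pair the arrays. With the replicate number as a block the 4 counts were 445, 601, 1416 and 27, and *Pdrg1* gave an adjusted p of 0.0108 at -0.99.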

Other observations

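The genes given here were named after their values were seen. The cytochrome P450 genes *Cyp2d5* (2.15, adjusted p = 3.01e-07) and *Cyp2d2* (1.60, adjusted p = 2.64e-05) rose with *Cyp2d1*, and *Cyp4a8*, a fatty acid hydroxylase, rose by 1.01 (adjusted p = 0.000416). Relatives of *Pzp*, *Mug1* (2.01, adjusted p = 8.26e-06) and *Mug2* (1.06, adjusted p = 2.11e-05), plasma protease inhibitors of the rat, also rose. Members of both families are alike in sequence, so their probes may not be independent. *Sftpc*, surfactant protein C, known from lung, rose by 2.08 (adjusted p = 0.000182), and *Agmat*, agmatinase, by 1.81 (adjusted p = 2.32e-07).

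On the lower side, *Ahnak*, a giant scaffold protein of the membrane (-1.64, adjusted p = 3.37e-06), *Nrg1*, a ligand of ERBB receptors (-1.51, adjusted p = 4.86e-05), *Ddit4l*, an inhibitor of mTOR signalling (-1.53, adjusted p = 9.53e-06), *Slpi*, a secreted protease inhibitor of epithelia (-1.46, adjusted p = 0.00019), and *Aldh1a1*, a retinal dehydrogenase (-1.17, adjusted p = 0.000184), fell in 3-44 against CN-10. *Lcp1*, plastin of blood cells and many tumour cells, fell by 1.14 on the log2 scale against CN-10 and was lower than in 4-18 (-5.21, adjusted p = 6.72e-09).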
